A study of Arabidopsis thaliana with 3 samples.

Results

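The class III peroxidases PER1 to PER60 are secreted haem enzymes of the plant cell wall, and 60 of the 73 peroxidase genes of this class that are numbered in Arabidopsis thaliana fall in this range. A member was taken as any non-control probe whose systematic name, cut to its locus, stood in the list of 60 loci. Each of the 60 loci had 1 probe, among 25665 loci on the array. Of these members 51 were tested, among 19875 tested loci. The numbers PER1 to PER60 follow that list of loci, and the TAIR10.1 gene table used for names holds all 60, with a symbol other than the locus for 9.

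Seedlings that carry 35S:AtIBH1-SRDX were set against wild-type seedlings, both in the Col-0 background and 10 days old, raised on solid MS medium (1% sucrose, 23 °C) with a day of 16 h and a night of 8 h, and harvested whole. IBH1 is a helix-loop-helix protein that restrains cell elongation, SRDX is a short plant repression domain, and the viral 35S promoter acts in most tissues, so the fusion is not limited to the cells that normally make IBH1. The sources used here do not state how many transgenic lines or plants went into a sample. Each of 3 Agilent 2-colour arrays held the RNA of 1 pair of biological replicates, with IBH1-SRDX in Cy3 on arrays 1 and 3 and in Cy5 on array 2.

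Class III peroxidases use hydrogen peroxide to oxidise phenolics, which cross-links lignin precursors and wall proteins and stiffens walls. They can also produce reactive oxygen in the wall, where it may loosen polymers or act in defence. In roots the bHLH factor UPB1 represses a set of them and so shifts the balance of superoxide and hydrogen peroxide between dividing and elongating cells, with PER39, PER40 and PER57 known as direct targets. Many members are made in roots, and some are tandem copies of each other.

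Between 58.8% and 63.5% of the spots stood well above background in each channel, and no member spot was saturated. Precision is limited by there being 3 arrays, and a mean over all 3 keeps 33.3% of any dye bias of a probe. With a dye term in the fit, 47 members were tested, with 16 higher and 17 lower. The probe for IBH1 gave less signal from RNA labelled IBH1-SRDX than from wild-type RNA (log2 ratio -0.71 ± 0.09, adjusted p = 0.00118 by limma). The position of that probe along the gene is unknown here, so every direction below rests on the labels. Values are given as normalised intensities in arbitrary units for each array, in the order of arrays 1, 2 and 3, and as the log2 ratio of IBH1-SRDX over wild type, the mean of 3 arrays ± the SE of limma unless stated. That SE is drawn toward the spread pooled over loci and can be smaller than the spread of a member's own arrays. Calls are at an adjusted p below 0.05 (limma, Benjamini-Hochberg over the 19875 loci), and "rose" and "fell" are used for called members. With 3 arrays the smallest p of an exact two-sided sign-flip test is 0.25, which leaves the calls to that pooled spread.

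The family moved in both directions. Of the 51 tested peroxidases, 13 rose and 17 fell in IBH1-SRDX seedlings, while 21 were not called. Those are 25.5% and 33.3% of the tested members, against 18.6% of all tested loci called higher and 19.9% called lower (38.4% either way). PER34, PER50 and PER46 rose at least 2-fold, where 3.09% of all tested loci did, and PER27, PER16, PER54, PER49 and PER56 fell at least 2-fold, where 2.13% did. Together these 8 are 15.7% of the tested members, against 5.22% of all tested loci. The median log2 ratio of the tested members was 0.07 and that of all tested loci 0.00. Its ratios were spread more widely, with quartiles of -0.57 and 0.36 against -0.21 and 0.20 over all tested loci. The counts themselves depend on the preparation: with median centring of each array in place of loess they were 3 higher and 8 lower, and with outlier local backgrounds kept 5 and 10. Of the 13 and 17 calls, median centring retained 3 and 7. In that setting limma used only the spread pooled over loci. A call there follows the size of the ratio and the number of arrays, not the agreement of a member's own arrays. PER18, counted among the 17, passed detection in wild type alone. Where both genotypes had to pass detection, 50 members were tested, with 13 higher and 18 lower.

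**Figure D1:**
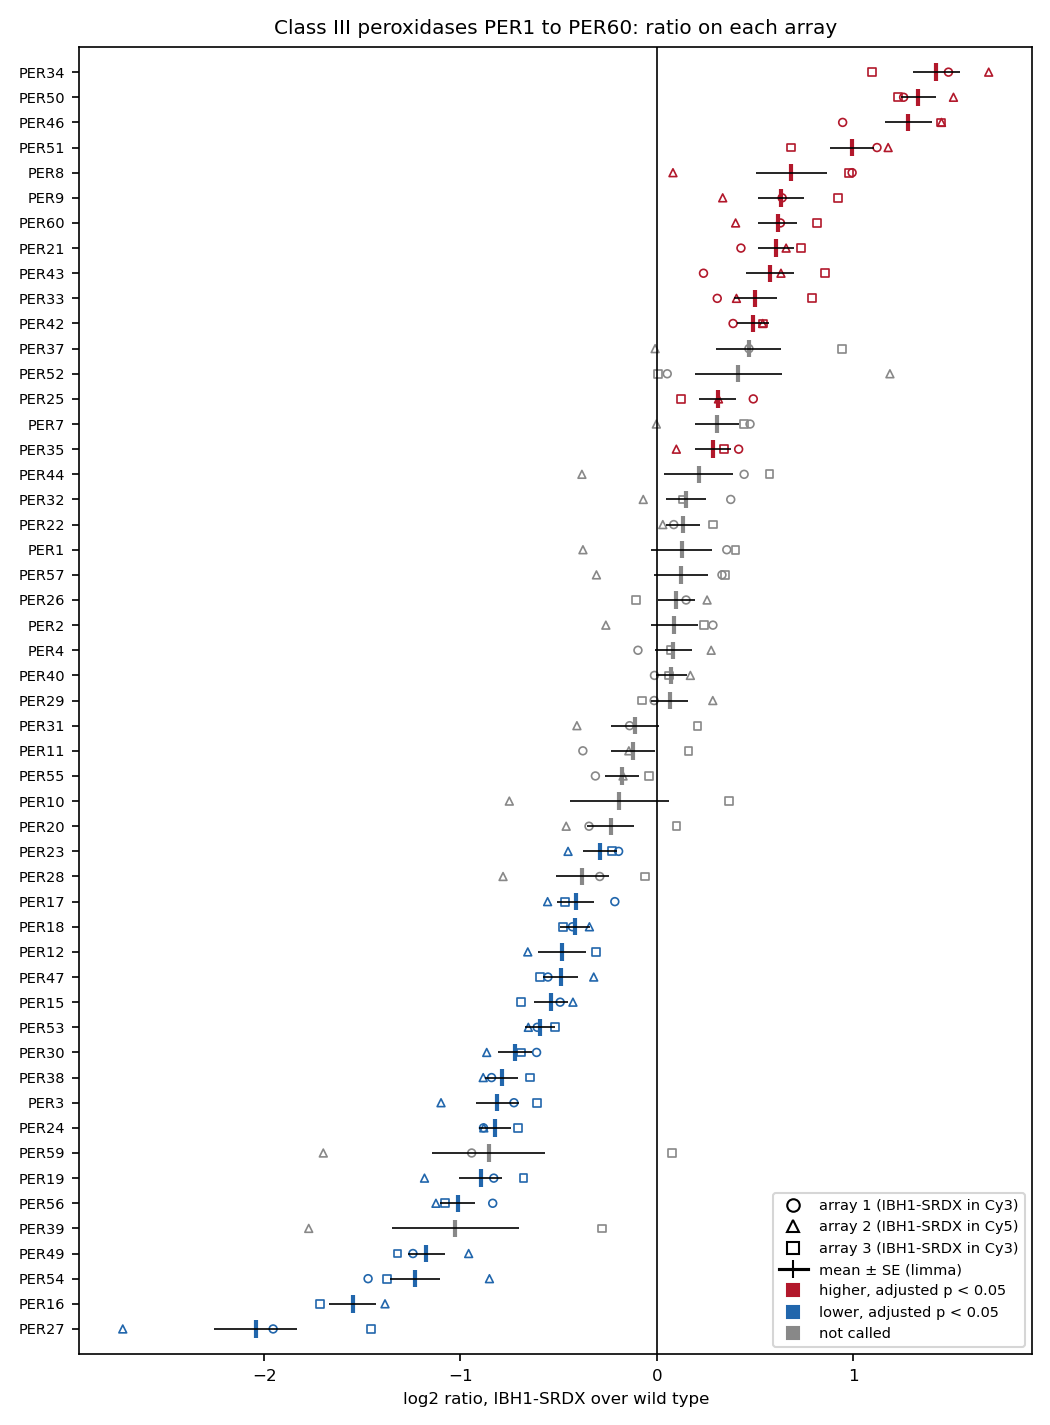
Log2 ratio of IBH1-SRDX over wild type (x axis) for the 51 tested peroxidases (y axis), with open symbols for the 3 arrays, a bar for the mean and a line for the SE of limma, red where higher, blue where lower and grey where not called. Ratios run from -2.04 for PER27 to 1.42 for PER34. Array 2 (triangles) lies outside the other arrays for 83% of the 47 members measured on all arrays, against 77.9% of all such loci.

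PER34 (AT3G49120, symbol PRXCB), one of the wall peroxidases that feed the oxidative burst after pathogen recognition, had the highest ratio of the tested members as reported. Its intensities were 12113, 15362 and 8155 in IBH1-SRDX, against 4324, 4758 and 3819 in wild type, and the genotypes did not overlap. That is a log2 ratio of 1.42 ± 0.12 (adjusted p = 0.00028, limma), or 2.68-fold. PER50 (AT4G37520) had 3434, 4803 and 3235 in IBH1-SRDX and 1436, 1685 and 1379 in wild type, a ratio of 1.33 ± 0.09 (adjusted p = 0.000118, limma). It was high on every array, with array 2 the highest in each genotype. Its neighbour PER51 (AT4G37530) had 4056, 5187 and 3136 in IBH1-SRDX and 1864, 2291 and 1950 in wild type, a ratio of 1.00 ± 0.11 (adjusted p = 0.000851, limma). PER46 (AT4G31760), a dimmer probe, had 310, 411 and 451 in IBH1-SRDX against 161, 150 and 165 in wild type, a ratio of 1.28 ± 0.12 (adjusted p = 0.000374, limma). No array of wild type reached the lowest IBH1-SRDX value for PER51 or PER46. With outlier local backgrounds kept the ratio of PER46 was 0.977, under 2-fold and not called (adjusted p = 0.0565, limma). By the log ratio of Feature Extraction PER46 stood at 1.83 (adjusted p = 0.00156, limma), above PER34 at 1.44, and PER51 stood at 1.06.

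PER27 (AT3G01190) fell the most. Its intensities were 1939, 1318 and 2890 in IBH1-SRDX, against 7514, 8685 and 7926 in wild type. The ratio was -2.04 ± 0.21 (adjusted p = 0.00061, limma), which is 4.12-fold lower. The wild-type values were close together and those of IBH1-SRDX were not, with an SD of the log2 ratio over the arrays of 0.637 and mean ratios between -2.34 and -1.70 when 1 replicate was left out. PER16 (AT2G18980) was measured on arrays 2 and 3, with 1842 and 1733 in IBH1-SRDX against 4808 and 5685 in wild type and a ratio of -1.55 ± 0.12 (n = 2 arrays, adjusted p = 0.000409, limma). Its spot on array 1 was marked as non-uniform and left out. With that spot kept, the ratio there was -1.45 and the mean -1.52.

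PER54 (AT5G06730) had 196, 295 and 209 in IBH1-SRDX against 542, 533 and 542 in wild type, a ratio of -1.23 ± 0.13 (adjusted p = 0.000611, limma). Array 2 was the highest of the IBH1-SRDX values and still far below wild type. With outlier local backgrounds kept its ratio was -0.81, also called. PER49 (AT4G36430), which takes part in lignin formation in the stem, had 2538, 3250 and 2292 in IBH1-SRDX against 6003, 6314 and 5724 in wild type, a ratio of -1.17 ± 0.10 (adjusted p = 0.000242, limma). PER56 (AT5G15180) had 481, 428 and 456 in IBH1-SRDX against 859, 932 and 962 in wild type, a ratio of -1.01 ± 0.09 (adjusted p = 0.000325, limma). Genotypes stood clear of each other for all 5 members that fell at least 2-fold, on the arrays where they were measured.

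**Figure D2:**
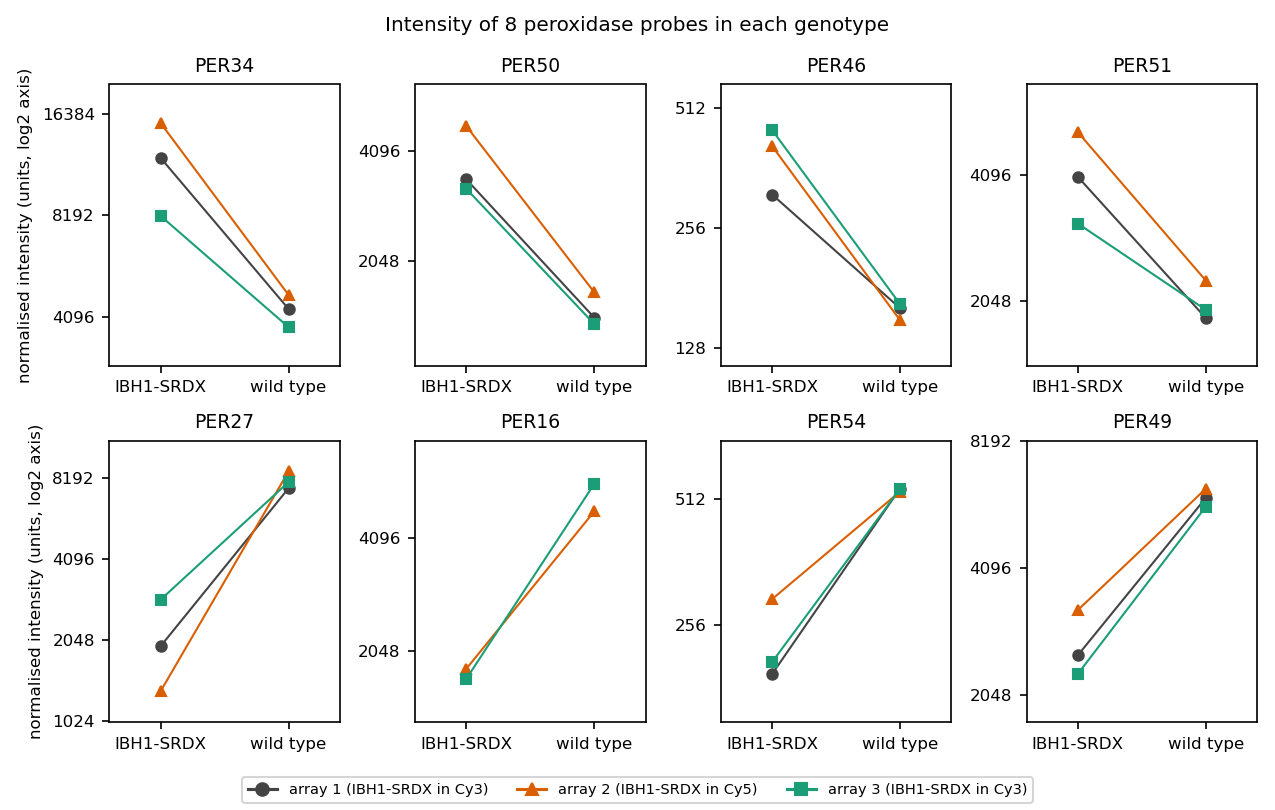
Normalised intensity (y axis, log2 scale, arbitrary units, its own range in each panel) of the 4 members with the highest ratios (top) and the 4 with the lowest ratios (bottom) in IBH1-SRDX (left of each panel) and wild type (right), with a line for each array. The genotypes' values do not overlap in any panel, and PER16 has 2 arrays.

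The other 12 members that fell had mean ratios between -0.90 and -0.29. PER19 (AT2G34060) stood at -0.90 ± 0.11, with 362, 294 and 437 in IBH1-SRDX against 644, 667 and 699 in wild type. PER24 (AT2G39040) stood at -0.82 ± 0.08, with 375, 363 and 432 in IBH1-SRDX against 692, 668 and 706 in wild type, and its arrays differed little among themselves. Both were low on every IBH1-SRDX array. PER38 (AT4G08780) stood at -0.79 ± 0.09, with 237, 209 and 274 in IBH1-SRDX against 424, 385 and 428 in wild type. PER30 (AT3G21770) stood at -0.72 ± 0.09, with 2618, 2113 and 2699 in IBH1-SRDX against 4002, 3852 and 4355 in wild type. For these members too the genotypes did not overlap. By the log ratio of Feature Extraction PER19 stood at -1.18 and PER38 at -1.05, each past 2-fold. PER53 (AT5G06720, symbol PA2), a peroxidase with a solved crystal structure, had array by array ratios of -0.61, -0.65 and -0.52, and a mean of -0.59 ± 0.08 (adjusted p = 0.00152, limma). PER15 (AT2G18150) stood at -0.54 ± 0.09, PER47 (AT4G33420) at -0.49 ± 0.09 and PER23 (AT2G38390) at -0.29 ± 0.09. PER12 (AT1G71695), measured on arrays 2 and 3, stood at -0.48 ± 0.12 (n = 2 arrays), a call that ended in 4 of the 12 other settings in which it could be fitted. For PER18 (AT2G24800) no IBH1-SRDX array stood well above background, so it passed detection through wild type alone. Its call is therefore no support for a fall. The fitted fold, 1.335 lower in IBH1-SRDX, was set by IBH1-SRDX signals not well above background and is no firm bound. The log2 ratio of PER18 was -1.87 by the log ratio of Feature Extraction, and -0.26 and not called with outlier local backgrounds kept. The call of PER23 ended when any 1 replicate was left out.

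The other 9 members that rose had mean ratios between 0.29 and 0.69. PER8 (AT1G34510) had 535, 325 and 559 in IBH1-SRDX against 269, 307 and 284 in wild type, a mean of 0.69 ± 0.18 (adjusted p = 0.0223, limma). Its excess lay on arrays 1 and 3, array 2 giving a ratio of 0.08, and without replicate 1 the mean of 0.53 was not called. With outlier local backgrounds kept it was 0.41, also not called. PER21 (AT2G37130) had 10898, 12600 and 13716 in IBH1-SRDX against 8095, 7979 and 8232 in wild type, a ratio of 0.61 ± 0.09 (adjusted p = 0.00249, limma). PER21 was higher on every IBH1-SRDX array than on any wild-type one. PER43 (AT4G25980) stood at 0.58 ± 0.12, with 163, 215 and 282 in IBH1-SRDX against 139, 139 and 156 in wild type, and at 0.93 by the log ratio of Feature Extraction. PER42 (AT4G21960, symbol PRXR1) stood at 0.49 ± 0.08, with arrays at 0.39, 0.54 and 0.54, and at 0.26 with median centring, where it was not called. PER35 (AT3G49960) stood at 0.29 ± 0.09, not called without replicate 1 or without replicate 3, and at 0.16 with median centring, not called. All 30 called members had 1 sign on every array that measured them, which a call from so few arrays nearly requires. Intensities of the genotypes did not overlap for 30 of the 51 tested members (58.8%), against 54.2% of all tested loci.

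UPB1 itself (AT2G47270) fell, with array ratios of -2.48, -2.62 and -2.09 (mean -2.40 ± 0.11, adjusted p = 3.97e-05, limma). Of its 3 target peroxidases 0 were called by limma. PER57 (AT5G17820), a root peroxidase that also acts on the cuticle when produced in excess, had 17925, 11989 and 18318 in IBH1-SRDX against 14237, 14833 and 14387 in wild type, a mean ratio of 0.12 ± 0.14 (adjusted p = 0.513, limma). IBH1-SRDX was higher on arrays 1 and 3 and lower on array 2, so the genotypes overlapped. PER40 (AT4G16270) had 287, 324 and 329 in IBH1-SRDX against 289, 288 and 315 in wild type, a mean of 0.07 ± 0.08 (adjusted p = 0.50, limma). PER39 (AT4G11290) had 5669 and 11705 in IBH1-SRDX on arrays 2 and 3 against 19369 and 14219 in wild type, a mean of -1.03 ± 0.32 (n = 2 arrays, adjusted p = 0.051, limma). Its array 1 spot was marked as non-uniform, and with that spot kept the array ratios were -0.94, -1.77 and -0.28, the mean -0.998 ± 0.245 and adjusted p = 0.0178 (limma), a call of lower. It was called lower in 6 of the 12 other settings in which it could be fitted. PER57 was called higher, at 0.34, without replicate 2, the array on the other side of 0. That call is no support for a rise. At an unadjusted p below 0.05, limma had PER39 alone of these 3 targets.

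Of the members that polymerise lignin in the Casparian strip of the root endodermis, 1 fell, 1 rose and 1 was not called. Counts by role and by marker list, here and below, are to be read against all tested loci. Of those, 18.6% were called higher and 19.9% lower, and nothing is called particular to a role. PER3 (AT1G05260, symbol RCI3, also known as a cold-induced gene) fell, with 6884, 6266 and 7927 in IBH1-SRDX against 11395, 13420 and 12094 in wild type (-0.81 ± 0.11, adjusted p = 0.00169, limma). PER9 (AT1G44970) rose, with 1450, 1175 and 1707 in IBH1-SRDX against 931, 931 and 899 in wild type (0.63 ± 0.12, adjusted p = 0.00618, limma). PER39, given above, belongs to the same set and was not called. Outside the 60 members, the Casparian strip peroxidases PER64 (-0.63 ± 0.11, adjusted p = 0.00503, limma) and PER72 (-0.82 ± 0.12, adjusted p = 0.00266, limma) both fell. Of 7 marker genes of the endodermis, all tested, 6 were lower and 1 was higher. Their summed intensity was 6378 to 9122 units in IBH1-SRDX and 12082 to 12457 in wild type over the arrays, and the CASP5 probe reached the detection limit in wild type alone. In whole seedlings fewer cells of a type and less RNA per cell cannot be told apart, here and for every list of markers below. The part of the endodermis markers in these ratios was not tested.

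Among 6 peroxidases of stem lignin, 2 fell, 1 rose and 3 were not called. PER49, given above, fell at least 2-fold, and PER17 (AT2G22420) had 2266, 2084 and 1987 in IBH1-SRDX against 2628, 3063 and 2749 in wild type (mean -0.41 ± 0.09, adjusted p = 0.013, limma). PER25 (AT2G41480) rose by a small amount, with 1398, 1138 and 989 in IBH1-SRDX against 994, 915 and 908 in wild type (0.31 ± 0.09, adjusted p = 0.0387, limma). The lowest IBH1-SRDX value lay within the wild-type range, and the call ended without replicate 1 or without replicate 2. With median centring or with outlier local backgrounds kept its ratio was 0.20, not called. PER52 (AT5G05340, symbol PRX52) was high on 1 array alone, with 108, 256 and 102 in IBH1-SRDX against 104, 112 and 102 in wild type (0.42 ± 0.22, adjusted p = 0.181, limma). Without replicate 3 it was called higher, at 0.62, although the ratios of arrays 1 and 2 were 0.05 and 1.19. In that setting limma's prior had 42.3 degrees of freedom, so the call is no support for a rise. PER2 (AT1G05250) had 6503, 5157 and 7748 in IBH1-SRDX against 5333, 6171 and 6549 in wild type. Its mean ratio was 0.09 ± 0.12, that of PER4 (AT1G14540) 0.08 ± 0.09, and both genes had overlapping genotypes. Of 11 xylem markers 9 were lower and 2 not called, with summed intensities of 8782 to 8870 units in IBH1-SRDX and 13449 to 13972 in wild type. All 11 stood well above background in both genotypes. Their part in the ratios of PER49 and PER17 was not tested.

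Of 3 peroxidases tied to defence and the oxidative burst, 2 rose. PER33 (AT3G49110, symbol PRXCA), which acts beside PER34, had 778, 828 and 1100 in IBH1-SRDX against 628, 625 and 637 in wild type (0.50 ± 0.11, adjusted p = 0.0112, limma). All IBH1-SRDX values lay above the wild-type ones, with array 3 the highest. PER4, which is induced by microbial elicitors and is also counted among the stem lignin genes, had 107, 141 and 118 in IBH1-SRDX against 114, 116 and 112 in wild type and was not called (adjusted p = 0.52, limma). PER34 and PER33 are close copies, and whether their probes share signal was not checked here, probe sequences not being used.

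Of the 2 members that act on the root hair wall, 0 were called by limma, also at an unadjusted p below 0.05. PER1 (AT1G05240), which with PER44 shapes the wall of growing root hairs, had 18323, 11145 and 19515 in IBH1-SRDX against 14308, 14462 and 14781 in wild type (0.13 ± 0.16, adjusted p = 0.551, limma). PER44 (AT4G26010) had 7837, 5029 and 8559 in IBH1-SRDX against 5756, 6549 and 5748 in wild type (0.21 ± 0.18, adjusted p = 0.382, limma). Both were higher in IBH1-SRDX on arrays 1 and 3 and lower on array 2. Without replicate 2, the array on the other side of 0, both were called higher, at 0.38 and 0.51. Those calls are no support for a rise. PER60 (AT5G22410), which is known here as a root hair gene only by its symbol RHS18, for root hair specific, rose, with 1314, 1033 and 1339 in IBH1-SRDX against 849, 782 and 761 in wild type (0.62 ± 0.10, adjusted p = 0.00341, limma). PER73, outside the 60 members and with the symbol RHS19, was not called (-0.29 ± 0.18, adjusted p = 0.241, limma). Of 8 root hair markers 3 were higher and 5 not called, with summed intensities of 6185 to 7150 units in IBH1-SRDX and 5711 to 5857 in wild type. All 8 stood well above background in both genotypes. Of 9 general root markers 3 were lower and 6 not called, with sums of 25308 to 37378 units in IBH1-SRDX and 45659 to 52630 in wild type. Most of each sum was 1 bright gene, PHT1.1, with 28427, 17895 and 25889 in IBH1-SRDX against 33897, 38984 and 31626 in wild type. NRT2.1 followed in the size of its drop, at mean intensities of 2795 against 7924. The 6 not called had mean ratios between -0.22 and 0.26, so the sums do not describe the list as a whole. Of 9 tested markers of green shoot tissue 4 were lower and 5 not called. The 6 measured on every array summed to 245572 to 280281 units in IBH1-SRDX and 399327 to 416803 in wild type. The largest difference among these 6 was that of RBCS3B, at mean intensities of 92999 against 172166. LHCA2 and PSAD1 were also lower (-0.85 and -0.53). LHCB2.1, LHCA1 and LHCB3 were not called (0.05, -0.24 and 0.27), so this sum does not describe its list either. The part of these lists in the ratios of PER60, PER1 and PER44 was not tested.

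Among the members known from flowers and seeds, PER9 and PER40 are needed for the wall of the tapetum and for pollen, and PER36 (AT3G50990) loosens the seed coat wall for mucilage release. In these seedlings PER9 rose and PER40 was not called, as given above, while PER36 was not well above background in either genotype on any array.

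Members that were not called often differed between the arrays. Of 19 such members measured on all arrays, 8 (42.1%) had array 2, where the dyes were swapped, on the other side of 0 from arrays 1 and 3, against 28.2% of all loci not called. PER37 (AT4G08770), a peroxidase whose excess dwarfs plants, had 3881, 3435 and 5779 in IBH1-SRDX against 2802, 3454 and 3003 in wild type (0.47 ± 0.17, adjusted p = 0.0635, limma). PER7 (AT1G30870) stood at 0.31 ± 0.11. PER2, PER7 and PER37 were called higher without replicate 2, at 0.26, 0.46 and 0.71. PER59 (AT5G19890) had 4688, 2757 and 9110 in IBH1-SRDX against 9010, 8948 and 8641 in wild type, a mean of -0.85 ± 0.29 (adjusted p = 0.0535, limma). Wild type was steady while IBH1-SRDX was low on arrays 1 and 2 and level with wild type on array 3, and the ratio without replicate 3 was -1.32, called lower. PER28 (AT3G03670) and PER20 (AT2G35380) were also called lower without replicate 3, at -0.54 and -0.40. Each call made here with a replicate left out dropped the array that went least in that direction, so none is support for a change. Without replicate 3 limma's prior also had 42.3 degrees of freedom. On array 2 a replicate and a dye orientation coincide, so the part of either in the differences between arrays cannot be told apart. Across the 47 to 51 members that 2 arrays have in common, the ratios correlated with Pearson's r of 0.865 (arrays 1 and 2), 0.917 (1 and 3) and 0.763 (2 and 3), all arrays being on 1 slide.

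Neighbouring pairs were taken only between members of consecutive numbers, with 0 or 1 gene between, so PER1 and PER3 were not paired. Of 10 such pairs 7 had both members tested, and none of those pairs was called in opposite directions. PER50 and PER51 both rose, PER33 and PER34 both rose, and PER53 and PER54 both fell. For no neighbouring pair, PER1 and PER2 included, was it checked whether the probes share signal. A shared direction or level may therefore not be 2 separate measurements. PER34 was higher than PER33 in log2 ratio by 1.18, 1.28 and 0.31 on the arrays. PER38 fell while PER37 beside it did not pass, and the log2 ratio of PER38 minus that of PER37 was -1.31, -0.88 and -1.59. PER3 fell beside PER2, with PER3 minus PER2 at -1.01, -0.84 and -0.85. PER1 and PER2 differed by -0.07, 0.12 and -0.16 (PER2 minus PER1). PER23 fell and PER22 (AT2G38380) was not called (0.13 ± 0.09), with PER23 minus PER22 at -0.28, -0.48 and -0.51. The differences within pairs were given no test.

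**Figure D3:**
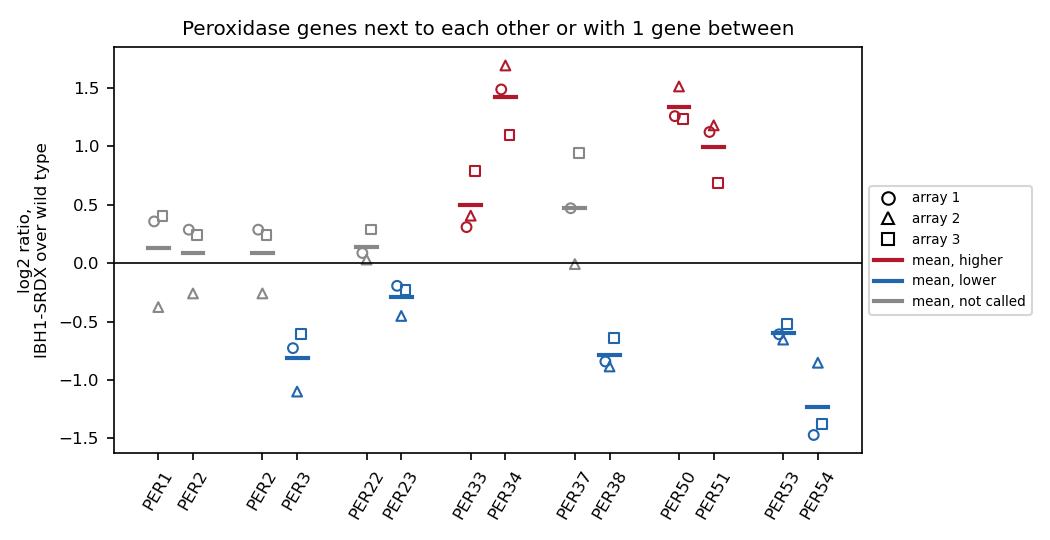
Log2 ratio of IBH1-SRDX over wild type (y axis) on each array (open symbols) and its mean (bar), coloured by call. Shown are the 7 neighbouring pairs of consecutive numbers with both genes tested. PER38 and PER3 lie below their neighbours PER37 and PER2 on every array, while PER50 and PER51 are both above 0.

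Members not called and not described above were PER10, PER11, PER26, PER29, PER31, PER32 and PER55, with mean ratios between -0.19 and 0.15. PER10 (AT1G49570) was measured on 2 arrays, at -0.75 and 0.37. Of the 9 members that were not tested, PER5, PER6, PER13, PER14, PER36, PER41, PER48 and PER58 were too dim. PER58 (AT5G19880) was well above background on 2 arrays in IBH1-SRDX and PER5 (AT1G14550) and PER48 (AT4G33870) on 1, each on none in wild type. PER45 (AT4G30170) was left out although bright, because its spots were marked as non-uniform on all 3 arrays. With marked spots kept it had 23229, 18792 and 22629 in IBH1-SRDX against 23162, 19507 and 20845 in wild type, a ratio of 0.02 ± 0.08 (adjusted p = 0.843, limma).

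Other enzymes of reactive oxygen metabolism are given by list, to be read against the 18.6% of all tested loci called higher and the 19.9% called lower. Nothing is called particular to a list. Of the 13 further class III peroxidases PER61 to PER73, 12 were tested, of which 2 rose, 6 fell and 4 were not called (median log2 ratio -0.38). PER71 (1.54 ± 0.26) and PER62 (1.00 ± 0.22) rose, and PER66 (-1.01 ± 0.08) and PER72 (-0.82 ± 0.12) fell. Of 8 tested RBOH oxidases, which make superoxide at the plasma membrane, 2 rose, 1 fell and 5 were not called. RBOHD, the main oxidase of the immune burst, had array ratios of 2.03, 1.97 and 2.77 (mean 2.26 ± 0.16, adjusted p = 0.000138, limma), and RBOHG stood at -0.75 ± 0.18. Of 7 genes listed as ascorbate peroxidases 2 rose and 3 fell, with the cytosolic APX1 at 0.46 ± 0.09 and APX5 at -0.72 ± 0.08. APX4 (-0.57 ± 0.08), with the symbol TL29 in the gene table, is among those that fell. It is listed by name, and its enzyme activity was not checked. Of 2 tested catalases CAT3 rose (0.98 ± 0.10, n = 2 arrays, and 0.39 with median centring, not called) and CAT2 fell (-0.47 ± 0.11). Of 7 superoxide dismutases FSD1 rose (0.80 ± 0.10), CSD2 fell (-1.23 ± 0.21) and 5 were not called. Of 6 glutathione peroxidases 3 rose, among them GPX3 (0.74 ± 0.09) and GPX6 (0.68 ± 0.12), and GPX1 fell (-0.69 ± 0.12).

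**Figure D4:**
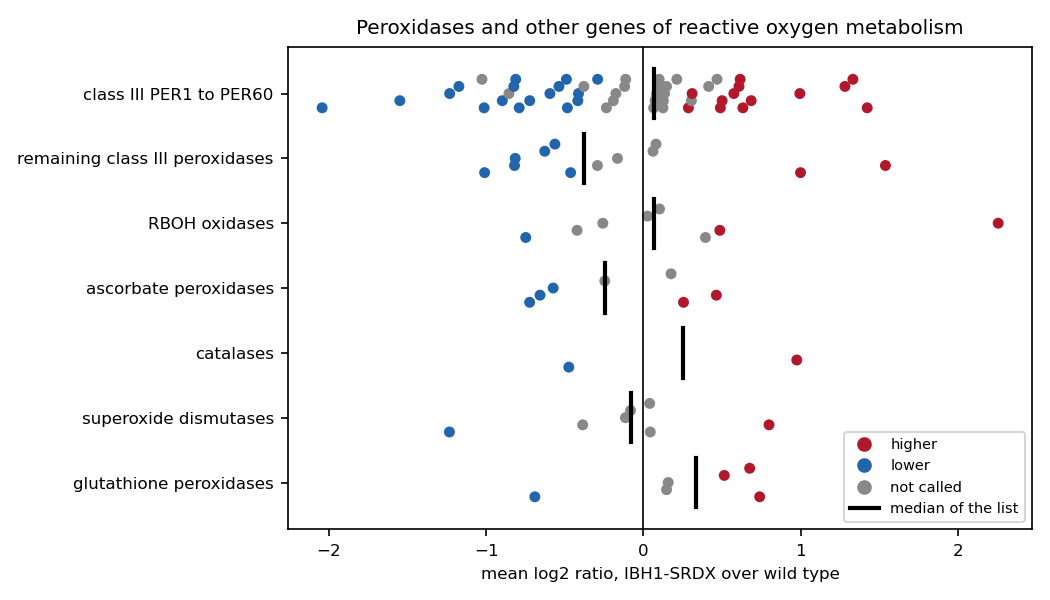
Mean log2 ratio of IBH1-SRDX over wild type (x axis) for the tested genes of 7 lists of reactive oxygen metabolism (rows), 1 point a gene, shifted up or down only for legibility and coloured by call, with a black bar at the list's median. The medians lie between -0.38 and 0.34, and each list holds called genes on both sides of 0.

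Under the 15 other settings, members called higher ranged from 3 to 18 and members called lower from 8 to 18. With outlier local backgrounds kept, 5.74% of all tested loci were higher and 9.65% lower, and with median centring 2.97% and 3.39%, so calls over all loci dropped with those of the members. Keeping outlier local backgrounds ended the calls of PER8, PER9, PER25, PER33, PER35, PER43, PER46 and PER60 among the higher members, and of PER12, PER15, PER18, PER19, PER23, PER38 and PER53 among the lower ones. With median centring the calls that held were PER34, PER46 and PER50 higher and PER3, PER16, PER19, PER27, PER49, PER54 and PER56 lower. Those calls rest on the pooled spread alone, so they do not measure how well the arrays of a member agree. The log ratio of Feature Extraction and the deposited series table each ended those of PER8, PER12, PER25 and PER35. PER34 and PER50 stayed higher, and PER3, PER16, PER27, PER49, PER54 and PER56 stayed lower, in every setting in which they were fitted, PER16 being fitted in 12 and the others in all 15.

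**Figure D5:**
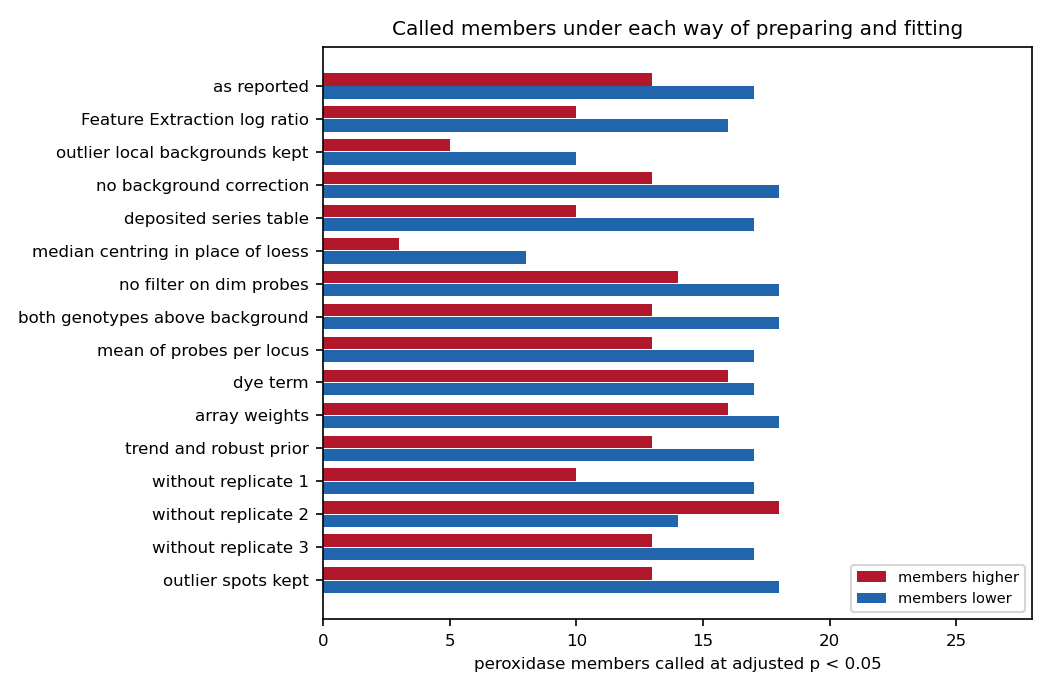
Number of peroxidase members called higher (red) and lower (blue) at an adjusted p below 0.05 (x axis) as reported and under 15 other ways of preparing or fitting the arrays (rows). Counts were lowest with median centring (3 and 8) and with outlier local backgrounds kept (5 and 10).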

How the data were processed

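RNA of whole seedlings was compared on 3 2-colour arrays. The deposited scanner files give, per the file headers, a median spot intensity and a local background intensity in each channel. Agilent Feature Extraction (9.1.3.1) made them, per the submitters' processing notes. They also carry flags of 0 or 1 and that program's own log10 ratio, per the file headers. The values in the deposited series table are natural log ratios of IBH1-SRDX over wild type, as found here by setting them against the scanner values (slope 1.00, r of 1.00), plus a constant of -0.0929, with column medians of 0.0019, -0.225 and 0.0046. How the table was centred is unknown.

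Background was corrected with normexp (offset 50). Local backgrounds marked as outliers took the median of the unmarked ones, a choice that follows earlier work on these data. Loess followed within each array, giving controls no weight. Controls and spots marked as outliers (91 to 189 an array) were then dropped. The brightest probe of a locus was tested where 1 genotype or both passed detection on all 3 arrays and at least 2 arrays measured it. Log2 ratios were tested against 0 with limma 3.58.1 in R 4.3.3 (2 residual degrees of freedom, 4.88 from the prior), after a check on simulated data. Intensities per genotype come from loess and Aquantile and include the offset. The alternatives were other backgrounds, normalizations, filters and fits, and each replicate left out.

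Members, lists and tests were chosen with earlier results of these data known, so none is independent support. Values on each array are given for the 10 called members with the largest ratio in each direction and for members with a listed role, with ranges for the rest. Beyond that rule some members were added because their arrays disagreed, and PER64 and PER73 for their roles, after their values were seen. PHT1.1, NRT2.1 and the summed green shoot markers were likewise added for their part in a sum. Other genes are named by the smallest adjusted p, at most 2 in each direction of a list. Gene positions in the TAIR10.1 gene table were used only to find neighbouring pairs, and no sequences were used.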

Additional observations from a re-analysis of the deposited data

How the results depend on the processing

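The reported test is itself paired, since it is on the ratio of both genotypes within each array, and no separate fit with a replicate block can be made. The slide could not be used as a block, since all arrays share 1 slide. As reported, 13 members were higher and 17 lower. With outlier local backgrounds kept the counts were 5 and 10, and with median centring 3 and 8; the cause was not tested. Leaving out 1 replicate gave 10 to 18 higher and 14 to 17 lower, and the median ratio of the members then lay between 0.01 and 0.03. The other settings, including one with outlier spots kept that was chosen after seeing the data (13 and 18), stayed within 1.5 times of both counts. Several members that were not called changed sign. With median centring these were PER1 (-0.0359), PER2 (-0.0393), PER22 (-0.0086), PER29 (-0.0459), PER40 (-0.0076) and PER57 (-0.0360), and with array weights PER10 (0.0669). When 1 replicate was left out, the ratio ranged from -0.0095 to 0.379 for PER1, from -0.0083 to 0.264 for PER2, from -0.0127 to 0.174 for PER4, from -0.259 to 0.0098 for PER11, from -0.0443 to 0.136 for PER29 and from -0.272 to 0.0347 for PER31. No called member changed sign. Without replicate 3 limma's prior had 42.3 degrees of freedom, against 4.88 as reported. With median centring the degrees of freedom of the prior were infinite, so only the pooled spread was used. Probes near background limit the dim members.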
